A study of Mus musculus with 80 samples.

Results

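Eda2r encodes the ectodysplasin A2 receptor, also called XEDAR, a member of the tumour necrosis factor (TNF) receptor family. It was selected on measured values of these libraries, namely its course during hindlimb unloading and its correlation with Fbxo32, Trim63 and Cdkn1a, so these values describe the gene and carry no test. It is 1 of 11068 genes in the table of females and 1 of 12853 genes in the table of males. The RNA came from a muscle of the calf, the gastrocnemius, in mice of the strain C57BL6/J. Unloading keeps the hind feet off the cage floor, which takes the load from the calf and leads to wasting. Female mice gave 8 libraries after 24 h of unloading, 8 after 48 h, 8 after 72 h, 7 after 168 h and 8 as controls that were not unloaded (0 h). Male mice gave 8 libraries after 24 h, 9 after 48 h, 9 after 72 h, 8 after 168 h and 7 as controls at 0 h. No transgene or drug is named for any group. The study states 8 mice per group and does not say for each library which animal it came from, so the errors and p-values below measure the spread between libraries.

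The receptor binds the A2 form of ectodysplasin and acts through TRAF adaptor proteins and the kinase NIK, encoded by Map3k14, on the non-canonical arm of NF-kB, in which the NF-kB2 precursor is processed and pairs with RelB. Its relative Edar binds the A1 form and serves the growth of hair and teeth. Eda2r is known as a p53 target, and in mice it has been linked to muscle wasting in cancer cachexia. Fbxo32 and Trim63 encode the ubiquitin ligases atrogin-1 and MuRF1, which mark muscle proteins for breakdown, and Cdkn1a encodes the cell cycle inhibitor p21.

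The tables place Eda2r (ENSMUSG00000034457, protein coding) on the minus strand of chromosome X, from 96377446 to 96420822. Their genome build is not stated. In RefSeq on GRCm38.p6, 250 bases before and 50 after the start of Eda2r lie on the minus strand at chrX:97377160-97377459. This window is shown because genes of the FoxO, p53 and NF-kB pathways are read below at the RNA level. Capitals mark matches to the letters of 3 motifs, which are from left to right the core of a FoxO element, TATAAA and the E-box CACGTG.

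Eda2r promoter: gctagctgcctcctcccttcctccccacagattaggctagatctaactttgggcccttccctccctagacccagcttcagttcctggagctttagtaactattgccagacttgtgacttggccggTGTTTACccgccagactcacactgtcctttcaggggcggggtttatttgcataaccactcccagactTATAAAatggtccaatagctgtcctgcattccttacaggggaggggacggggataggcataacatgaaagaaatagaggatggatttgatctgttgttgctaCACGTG

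Both strands were searched. The FoxO core, TGTTTAC, began at base -125 relative to the start, and 3.65% of 32851 promoter windows of the same length hold one. TATAAA began at base -58 and occurs in 13.6% of the windows, and CACGTG began at base 44 after the start and occurs in 7.15%. The loose NF-kB pattern (GGG and CC a few bases apart) matched at 2 overlapping places, from bases -200 and -199, and 50.8% of windows hold it. CCAAT at base -47 (in 37.4% of windows) and the GC box GGGCGG at base -92 (in 35.7%) were also there. No copy of the p53 decamer (in 8.36% of windows) and no TTCNNNGAA, the STAT pattern (in 8.3%), was found in these letters. A match describes the sequence and shows no binding.

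Some libraries and groups differed in ways that touch the values of Eda2r. The numbers in the library titles fall into 3 library sets per sex, and the female 24 h, 72 h and 168 h groups and the male 24 h and 48 h groups share no set with their controls, so set and time cannot be told apart there. In 7 of 39 female libraries and in 0 of 41 male libraries the median Spearman correlation with the others of the group was under 0.95; the lowest, 0.866, was that of female 72 h replicate 5. Estimated depth, in units of 1e6 reads, ran from 5.56 to 50.5 in female libraries and from 18.0 to 49.7 in male libraries, and behind the value of Eda2r stood an estimated 120 to 10185 reads in females and 490 to 10809 in males. The muscle fibre markers Acta1, Ckm, Ttn, Myh4, Pygm and Mb were all measured in both tables. In bulk tissue, fewer cells of a type and less RNA per cell cannot be told apart.

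In females, Eda2r stood higher in every unloaded group than at 0 h, with the top of the course at 48 h. Its level is the deposited normalized signal, in the units of the female table. The 24 h libraries held 658 at the lowest, 1292 at the median and 2640 at the highest. The 48 h libraries held 1039, 2030 and 4066 in the same order, and the 72 h libraries 323, 1230 and 2643. The 168 h libraries held 401, 691 and 1524, against 154, 237 and 347 in the 0 h libraries. All 8 libraries at 24 h, all 8 at 48 h and all 7 at 168 h lay above every 0 h library, as did 7 of 8 at 72 h; the exception, 72 h replicate 5, is the library least like its group. The 48 h group was split in level, with replicates 6 and 7 at 4066 and 3894 and the other 6 libraries between 1039 and 2280.

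Means in females were 1487 ± 694 (SD, n = 8) at 24 h, 2402 ± 1040 (n = 8) at 48 h, 1344 ± 780 (n = 8) at 72 h and 769 ± 384 (n = 7) at 168 h, against 245 ± 66.7 (n = 8) at 0 h. The coefficient of variation was 27.2% at 0 h and between 43.3% and 58.1% in the unloaded groups, so each unloaded group had a wider relative spread than the controls. Of the libraries that stood apart, those at 0 h (154), at 24 h replicate 1 (658) and at 72 h (323 and 595) were at the low end of their groups.

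In males, Eda2r was also highest at 48 h, close behind at 24 h, and nearer to control later. In the units of the male table, the 24 h libraries held 2260 at the lowest, 4798 at the median and 6888 at the highest. The 48 h libraries held 2338, 5056 and 9839, and the 72 h libraries 738, 2293 and 3057. The 168 h libraries held 1114, 2469 and 4909, against 706, 1138 and 1872 in the 0 h libraries. All 8 libraries at 24 h and all 9 at 48 h lay above every 0 h library. The groups overlapped with 0 h later, where 7 of 9 libraries at 72 h and 6 of 8 at 168 h lay above every control.

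Means in males were 4557 ± 1816 (SD, n = 8) at 24 h, 5575 ± 2700 (n = 9) at 48 h, 2112 ± 647 (n = 9) at 72 h and 2609 ± 1151 (n = 8) at 168 h, against 1147 ± 378 (n = 7) at 0 h. The coefficient of variation was 33.0% at 0 h and between 30.6% and 48.4% in the unloaded groups. The 48 h libraries were again spread, with replicates 1, 6 and 2 at 7319, 9374 and 9839 and the other 6 between 2338 and 5115. The sexes were normalized in separate tables, so their levels are not compared.

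**Figure D1:**
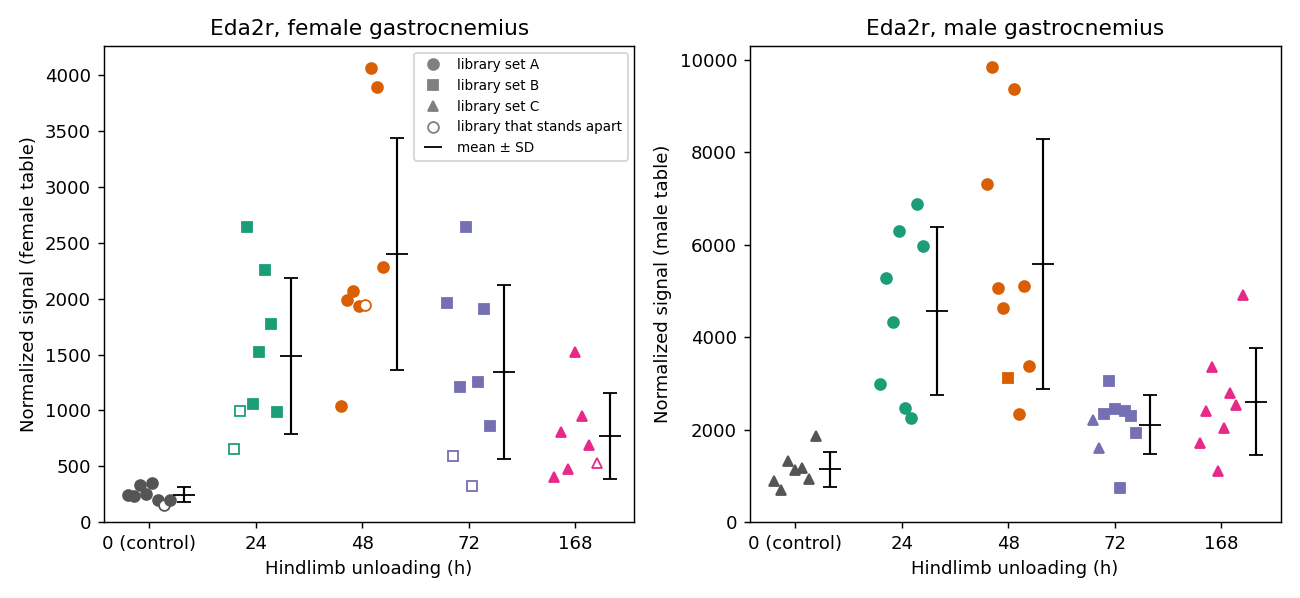
Normalized signal of Eda2r in each library (points) against hours of unloading, females left and males right, each on its own scale from 0; black bars are the mean ± SD, symbol shapes are library sets and open symbols are libraries that stand apart. The female 48 h points reach 4066 and the male 48 h points 9839, and the 0 h points stay at or below 347 in females and 1872 in males.

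Ordered by mean, female groups ran 48 h, 24 h, 72 h, 168 h and 0 h. Only the lowest step, 168 h over 0 h, exceeded the larger SD of the pair (a difference of 524 against an SD of 384); the 3 other neighbours did not differ beyond their spread. Male groups ran 48 h, 24 h, 168 h, 72 h and 0 h. There the steps of 24 h over 168 h (1948 against 1816) and of 72 h over 0 h (965 against 647) exceeded the larger SD, and those of 48 h over 24 h and of 168 h over 72 h did not. The late groups thus stand in a different order in the 2 sexes, by differences of means that lie within the spread of the libraries.

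On the scale of log2(signal + 1), the female change against 0 h was 2.50 ± 0.34 (SE) at 24 h, a 5.66-fold difference, with a 95% interval of 1.82 to 3.18. It was 3.22 ± 0.34 at 48 h, or 9.30-fold (2.54 to 3.90), and 2.23 ± 0.34 at 72 h, or 4.70-fold (1.55 to 2.91). At 168 h it was 1.56 ± 0.35, or 2.94-fold (0.85 to 2.26). Eda2r had the 10th, 4th, 11th and 42nd largest increase of 11068 genes at these times. At 48 h the genes above it were Gm10309, Odf3l2 and Lcn2, and the next below it, at 3.16, was Fbxo32.

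The male change was 1.94 ± 0.31 at 24 h, a 3.83-fold difference (1.3 to 2.57), and 2.19 ± 0.31 at 48 h, or 4.56-fold (1.57 to 2.81). It was 0.85 ± 0.31 at 72 h, or 1.81-fold (0.24 to 1.47), and 1.13 ± 0.31 at 168 h, or 2.18-fold (0.49 to 1.76). Eda2r stood 18th, 6th, 52nd and 50th among 12853 genes ordered from the largest increase down, and at 48 h Fbxo32, at 2.31, stood just above it. The authors' deposited table gives ratios to 0 h of 6.06, 9.79, 5.48 and 3.13 for females and of 3.97, 4.86, 1.84 and 2.27 for males, in order of time.

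Comparisons inside a library set were possible at 3 points. Female 48 h and 0 h libraries were of the same set, and the change fitted from that set was 3.22 ± 0.24. Male 168 h and 0 h libraries also shared a set, with a change of 1.13 ± 0.27. Of the male 72 h libraries 2 were in the set of the controls, with a change of 0.78 ± 0.41. Without the 7 female libraries that stood apart, the female changes were 2.66, 3.15, 2.59 and 1.53 in order of time.

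**Figure D2:**
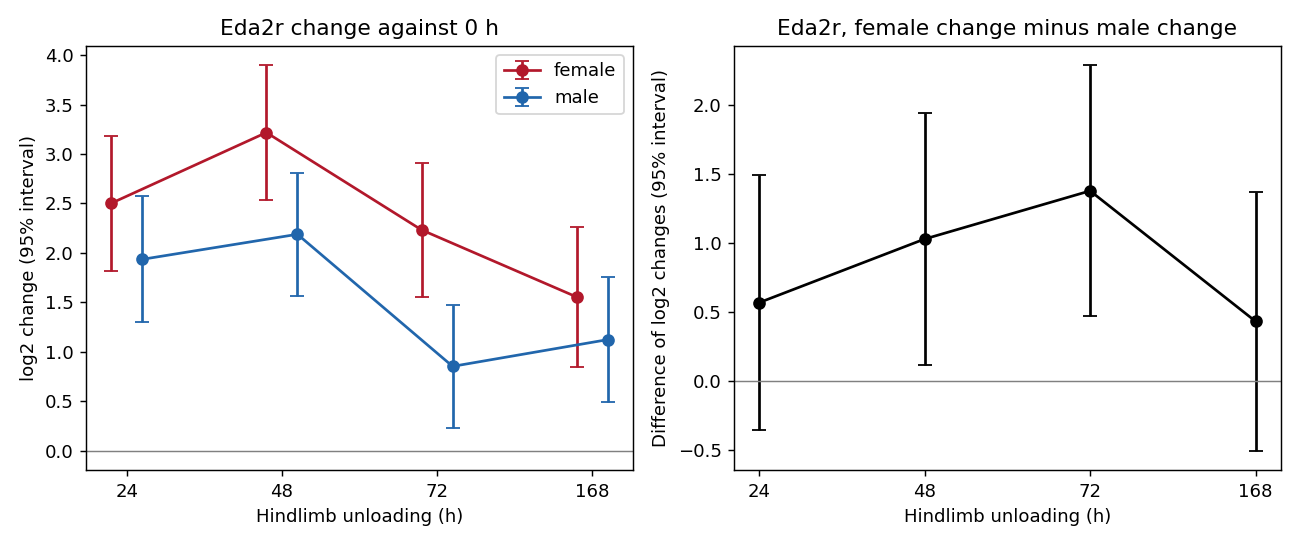
Left, log2 change of Eda2r against 0 h (points) with 95% intervals, females in red and males in blue, by hours of unloading; right, the female change minus the male change with its 95% interval. Both courses peak at 48 h, at 3.22 in females and 2.19 in males, and the largest difference is 1.38 at 72 h.

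The female change of Eda2r was set against the male change in 1 fit over the 10964 genes in both tables. The gene was selected on both courses, so the differences are given with their intervals and without a test. The female change exceeded the male change by 0.57 ± 0.46 at 24 h (95% interval -0.36 to 1.49) and by 1.03 ± 0.46 at 48 h (0.12 to 1.94). The excess was 1.38 ± 0.46 at 72 h (0.47 to 2.29) and 0.43 ± 0.47 at 168 h (-0.51 to 1.37). Among all genes, 0.0547%, 0.301%, 2.44% and 0.0182% were called for a difference between the sexes at these times.

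At 72 h the excess was 1.74 ± 0.44 without the female libraries that stood apart, 1.63 without female 72 h replicate 5 alone, and 1.55 ± 0.39 with array weights. The female 72 h libraries were also the shallowest, with estimated depths of 5.56 to 9.63 on that scale, and no library set holds both sexes, so sex cannot be told apart from set.

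Across all libraries of a table Eda2r ran closely with Fbxo32. Pearson r of log2(signal + 1) was 0.942 (Spearman rho 0.916) over 39 female libraries and 0.887 (rho 0.885) over 41 male libraries. With Trim63 it was 0.862 (rho 0.881) in females and 0.845 (rho 0.862) in males, and with Cdkn1a 0.747 (rho 0.696) and 0.714 (rho 0.711), females first. These points share their time group and their library set, and the gene was chosen for the correlation, so the values are a description.

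Centring each library on the mean of its time group takes the shared course out. Eda2r and Fbxo32 then gave r = 0.848 in females and 0.717 in males, so libraries high in Fbxo32 for their time were also high in Eda2r. For Trim63 the centred r was 0.692 in females and 0.688 in males. For Cdkn1a it was 0.359 in females and 0.443 in males, the lowest of the 3 partners in each sex.

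The relation with Fbxo32 was not alike at every time. Among the control libraries r was 0.515 in females (n = 8) and -0.181 in males (n = 7). At 24 h it was 0.60 in females (n = 8) and 0.856 in males (n = 8), and at 48 h 0.957 in females (n = 8) and 0.970 in males (n = 9). At 72 h it was 0.923 in females (n = 8) and 0.694 in males (n = 9), and at 168 h 0.963 in females (n = 7) and 0.712 in males (n = 8). Male 168 h replicate 8 had the highest Fbxo32 (103212) and the highest Eda2r (4909) of its group, and replicate 4 of that group had the lowest Eda2r (1114) with an Fbxo32 signal of 18098, the third highest there. Female 72 h replicate 5 was at the other end, with the lowest Fbxo32 (3298) and the lowest Eda2r (323) of its group.

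**Figure D3:**
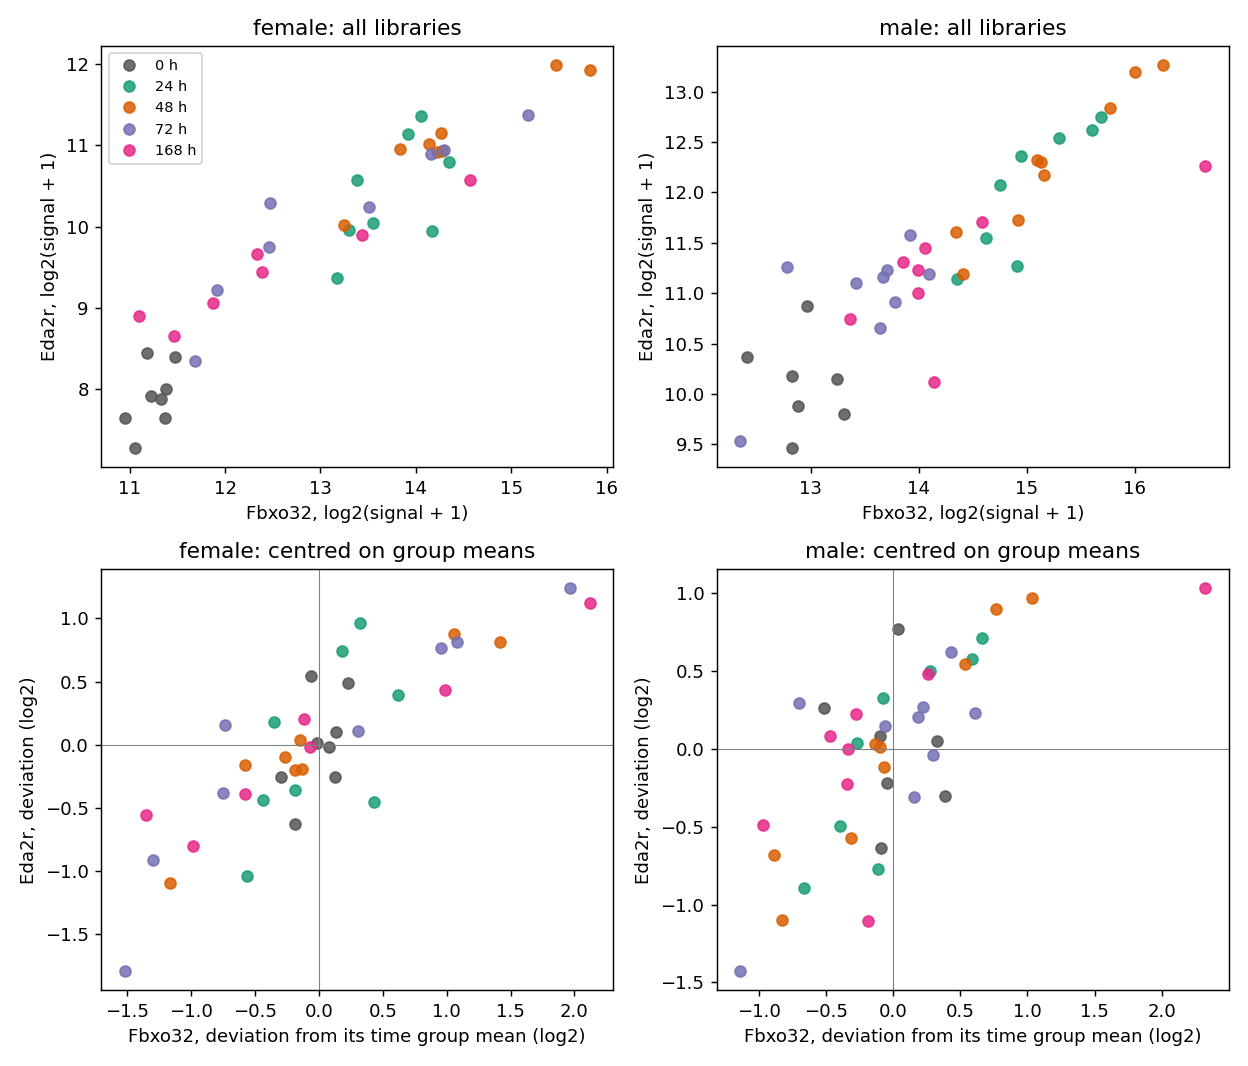
Eda2r against Fbxo32 in each library, females left and males right, coloured by hours of unloading. The top panels show log2(signal + 1), with r of 0.942 in females and 0.887 in males, and the bottom panels show deviations from the time group means, with r of 0.848 and 0.717 in the same order.

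Genes whose pattern was most like that of Eda2r were ranked by the lower of the 2 sexes' r among 9329 genes with a mean signal of at least 100 in both tables; the median gene had a lower r of -0.03. Over all libraries the 10 closest were Txnl1 (0.896), Clip1 (0.889), Fbxo32 (0.887), Nbr1 (0.885), Nploc4 (0.885), Sqstm1 (0.882), Napb (0.878), Nars (0.877), Ubxn4 (0.875) and Vldlr (0.864). Txnl1 is a thioredoxin-like protein bound to the proteasome, Nbr1 and Sqstm1 are receptors for cargo of autophagy, and Nploc4 and Ubxn4 are partners of the ATPase VCP in protein breakdown. Trim63 ranked 20th and Cdkn1a 311th.

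With libraries centred on their group means the closest genes were Naa25 (0.827), Ddx21 (0.824), Tsr1 (0.819), Lrrc2 (0.815), 4930429F24Rik (0.807), Kctd9 (0.793), Txnl1 (0.791), Aebp2 (0.785), Ubxn4 (0.782) and BC005537 (0.777). Txnl1 and Ubxn4 stand in both groups of 10. Naa25 is a subunit of an N-terminal acetyltransferase, Ddx21 a nucleolar RNA helicase and Tsr1 a factor of ribosome maturation. Fbxo32 ranked 55th, Trim63 92nd and Cdkn1a 1615th by this measure, which takes the lower of the sexes. In females alone the centred r of Fbxo32, 0.848, was above that of 9 of these 10 genes.

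The ligand side of the pathway was barely visible. Edar and the adaptor Edaradd were in neither table, and Eda, the ectodysplasin gene, was in the male table only. Eda held 113.8 at the lowest, 133 at the median and 182 at the highest at 72 h, and 96.4, 146 and 185 at 168 h, against 103.8, 119 and 160 at 0 h. The groups overlapped, with log2 changes of -0.04, -0.01, 0.11 and 0.17 in order of time and adjusted p-values in limma from 0.43 to 0.97. Tnfrsf19, the related receptor TROY, fell in males at 24 h by 0.82 on the log2 scale (limma adjusted p = 0.0090) and did not pass the test in the 7 other comparisons.

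Over all 7 lists of pathway genes, 30, 40, 30 and 16 of 87 measured genes were called in females in order of time, beside 24.7%, 38.1%, 30.0% and 10.7% of all genes in either direction. The count at 168 h was 34 with array weights, a setting for which the share of all genes was not counted. In males 38, 37, 12 and 24 of 94 were called, beside 29.1%, 31.0%, 10.8% and 22.5% of all genes. The count at 72 h was 7 within a library set, where 2 libraries were of 72 h and the share of all genes was not counted.

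Of the NF-kB arms, more members were called higher than lower at 48 h and 72 h, in both sexes. Of 22 measured in females, 1 was higher and 3 lower at 24 h, 6 and 2 at 48 h, 8 and 0 at 72 h, and 1 and 1 at 168 h. Over all female genes 13.8% were higher and 10.9% lower at 24 h, 21.0% and 17.1% at 48 h, 16.8% and 13.2% at 72 h, and 6.30% and 4.38% at 168 h. The 6 at 48 h were 27.3% of the list, near the share of all genes, and the 8 at 72 h were 36.4%. The median member changed by 0.16 at 72 h, against 0.03 for all genes.

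Of 23 measured in males, 2 were higher and 3 lower at 24 h, 5 and 1 at 48 h, 3 and 0 at 72 h, and 1 and 0 at 168 h. Over all male genes 14.8% were higher and 14.4% lower at 24 h, 16.3% and 14.7% at 48 h, 5.61% and 5.22% at 72 h, and 11.0% and 11.5% at 168 h. The 3 higher members at 72 h were 13% of the list, and the median member changed by 0.04.

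Map3k14, Relb and Nfkb2 are given as genes of the non-canonical arm and were picked after their values were seen. Of other members of the NF-kB list, Chuk and Birc3 were called in 0 of 8 comparisons. Birc2 and Traf2 were called higher in 1 comparison each, and Traf6 in 2. In females Map3k14 held 130 at the lowest, 210 at the median and 389 at the highest at 72 h, against 105.2, 134 and 152 at 0 h, and 7 of 8 libraries lay above every control. Its log2 change was 0.71 ± 0.21 at 72 h (limma adjusted p = 0.0093), and 0.64 ± 0.21 at 48 h (adjusted p = 0.014; 0.054 without female 48 h replicate 7 and 0.052 with array weights). In males it held 178, 230 and 370 at 72 h, against 200.5, 285 and 336 at 0 h, with a change of -0.26 ± 0.17 (adjusted p = 0.36), and it was called at no time, though at 168 h its change of -0.37 had an adjusted p of 0.12, or 0.041 with array weights and 0.030 within a library set. The female change exceeded the male change at 72 h by 0.97 ± 0.28 (limma adjusted p = 0.041), a call that was lost in 15 of 32 fits that each left out 1 library (adjusted p 0.018 to 0.11).

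Relb rose in females at 48 h by 0.54 ± 0.17 (limma adjusted p = 0.011) and at 72 h by 0.99 ± 0.17 (adjusted p = 3.1e-05), where all 8 libraries lay above every 0 h library. In males it rose by 0.36 ± 0.13 at 48 h (limma adjusted p = 0.024) and by 0.45 ± 0.13 at 72 h (adjusted p = 0.016, with 7 of 9 libraries above every control), and without male 0 h replicate 1 these adjusted p-values were 0.075 and 0.052. With array weights the male value at 48 h had a limma adjusted p of 0.081. Nfkb2 rose at 72 h in females by 0.67 ± 0.15 (limma adjusted p = 0.00066) and in males by 0.35 ± 0.10 (adjusted p = 0.013), with 6 of 8 and 6 of 9 libraries above every control. Relb and Nfkb2 were not called at 24 h or at 168 h in either sex. An order in time between these genes and Eda2r was not tested.

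Traf3, which holds NIK low by sending it to breakdown, was lower at 24 h by 0.50 ± 0.17 in females (limma adjusted p = 0.025, but 0.14 without the libraries that stood apart and 0.082 without 24 h replicate 1) and by 0.49 ± 0.11 in males (adjusted p = 0.00060). In males it was lower at 48 h as well, by 0.27 ± 0.10 (limma adjusted p = 0.044), a call lost in 11 fits that each left out 1 library. In females Traf3 did not stay low. At 72 h all 8 libraries lay above every control, at 366.3 to 501.3 against 276.5 to 358.7, though it was not called higher. At 168 h 5 of 7 lay below every control, without a call. Tnfaip3, the NF-kB inhibitor A20, was lower at 24 h in females by 1.10 ± 0.21 (limma adjusted p = 0.00019, all 8 libraries below every control) and in males by 0.48 ± 0.17 (adjusted p = 0.027; up to 0.073 when 1 library was left out). Nfkbia and Nfkbib, inhibitors that hold NF-kB in the cytoplasm, were higher in 7 and 4 of the 8 comparisons, the male call of Nfkbib at 24 h being lost in 8 fits that each left out 1 library. At 72 h in females Nfkbib rose by 0.83 ± 0.11 (limma adjusted p = 3.8e-07), with all 8 libraries above every control.

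Other TNF receptors were called in both directions. Of 10 measured in females, the only one called higher at any time was Fas at 24 h, and of 12 in males those called higher were Ltbr at 24 h, Fas at 48 h and Tnfrsf4 at 168 h. The shares higher were 10%, 0%, 0% and 0% in females, beside 13.8%, 21.0%, 16.8% and 6.30% of all genes. In males they were 8.33%, 8.33%, 0% and 8.33%, beside 14.8%, 16.3%, 5.61% and 11.0%. Receptors called lower numbered 2, 1, 1 and 2 in females and 4, 2, 2 and 4 in males, in order of time. These are 20%, 10%, 10% and 20% of the list in females, beside 10.9%, 17.1%, 13.2% and 4.38% of all genes, and 33.3%, 16.7%, 16.7% and 33.3% in males, beside 14.4%, 14.7%, 5.22% and 11.5%. Fas, a death receptor and p53 target, changed by 0.54, 0.33, 0.18 and 0.43 in females and by 0.27, 0.35, 0.15 and 0.30 in males, with the calls named above. Relt fell at 24 h by 1.35 ± 0.18 in females (limma adjusted p = 1.6e-06) and by 0.88 ± 0.18 in males (adjusted p = 0.00037). Tnfrsf22, a decoy receptor for TRAIL in mice, was measured in the male table only, at a mean signal of 58.9. It was lower there at all 4 times, by as much as 1.01 at 48 h. Tnfrsf23, a second decoy, was lower in males at 3 times and was not called in females. The death receptor gene Tnfrsf21 was lower at 72 h and 168 h in females and at 168 h in males. Tnfrsf12a, the receptor of TWEAK, varied widely and was called at no time. Of 2 ligands measured in females, Tnfsf10 (TRAIL) was lower at 24 h, 48 h and 72 h and Tnfsf12 (TWEAK) at 48 h and 72 h. Over all female genes 10.9%, 17.1% and 13.2% were lower at these 3 times. In males 0 of 4 measured ligands were called by limma at any time, beside 29.1%, 31.0%, 10.8% and 22.5% of all genes in either direction. The calls of Ltbr and Fas in males, of Tnfrsf22 at 24 h and 168 h, of Tnfsf10 at 24 h and 48 h and of Tnfsf12 each passed 0.05 in some fits that left out 1 library and missed it in others (adjusted p of up to 0.12 in limma).

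Il6ra, the interleukin-6 receptor, was called higher in 7 of the 8 comparisons. It held 212 at the lowest, 392 at the median and 911 at the highest in females at 24 h, and 291, 539 and 1457 at 48 h, where no library overlapped with the 0 h range, which had its median at 83.97. Its log2 changes in females were 2.23 ± 0.32, 2.71 ± 0.32, 1.48 ± 0.32 and 1.34 ± 0.34 in order of time (limma adjusted p at most 0.0070). In males they were 1.28 ± 0.20, 1.37 ± 0.19, 0.29 ± 0.19 and 0.71 ± 0.20, with the third not called (adjusted p = 0.36). Of the whole list of 14 measured members in females, Il6ra included, 1, 3, 2 and 1 were higher and 3, 2, 1 and 0 lower. The shares higher were 7.14%, 21.4%, 14.3% and 7.14%, beside 13.8%, 21.0%, 16.8% and 6.30% of all genes. The shares lower were 21.4%, 14.3%, 7.14% and 0%, beside 10.9%, 17.1%, 13.2% and 4.38%. Of 15 in males, 2, 2, 0 and 1 were higher and 4, 5, 1 and 2 lower. The male shares higher were 13.3%, 13.3%, 0% and 6.67%, beside 14.8%, 16.3%, 5.61% and 11.0% of all genes. The male shares lower were 26.7%, 33.3%, 6.67% and 13.3%, beside 14.4%, 14.7%, 5.22% and 11.5% of all genes. The kinases Jak1 and Tyk2 were lower at 24 h in both sexes, by 0.39 and 0.36 in females and 0.29 and 0.25 in males; for Tyk2 in females the limma adjusted p was 0.096 without the libraries that stood apart.

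The p53 list held genes called in both directions. Of 23 measured in females 9, 9, 7 and 5 were higher and 2, 3, 2 and 0 lower, and of 25 in males 10, 10, 3 and 7 were higher and 3, 3, 2 and 3 lower. The shares higher were 39.1%, 39.1%, 30.4% and 21.7% in females, beside 13.8%, 21.0%, 16.8% and 6.30% of all genes, and 40%, 40%, 12% and 28% in males, beside 14.8%, 16.3%, 5.61% and 11.0%. The shares lower were 8.70%, 13%, 8.70% and 0% in females, beside 10.9%, 17.1%, 13.2% and 4.38% of all genes. In males they were 12%, 12%, 8% and 12%, beside 14.4%, 14.7%, 5.22% and 11.5%. Trp53 itself was called in 0 of 8 comparisons by limma, with adjusted p-values from 0.078 to 0.95. Phlda3, a p53 target that restrains AKT, was higher in all 8 comparisons, by 0.86, 1.07, 1.13 and 0.67 in females and by 1.11, 0.92, 0.54 and 0.66 in males. Trp53inp1, a stress protein induced by p53, was higher at 24 h, 48 h and 168 h in females, by 1.52, 1.58 and 1.42, and at all 4 times in males, by 0.69, 0.98, 0.49 and 0.92; its calls at 168 h in females and 72 h in males had limma adjusted p-values of up to 0.081 and 0.12 when 1 library was left out. Cdkn1a and Ddit4 were called higher in 7 of 8, both missing in males at 72 h, where Eda2r also stood lowest above control. Cdkn1a was part of the rule that selected Eda2r, so its likeness to Eda2r carries no test. Cdkn1a held 740 at the lowest, 1191 at the median and 2161 at the highest in females at 24 h, against 214, 336 and 686 at 0 h, without overlap. The p53 targets Ccng1, Polk and Zmat3 went the other way and were lower in 6, 7 and 5 of the 8 comparisons.

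The list of ligases and FoxO factors held genes called in both directions. In males the share called higher was lowest at 72 h, as it was over all genes. Of 17 measured in females 7, 9, 6 and 5 were higher and 1, 3, 1 and 1 lower, and of 16 in males 8, 7, 1 and 4 were higher and 1, 2, 0 and 1 lower. The shares higher were 41.2%, 52.9%, 35.3% and 29.4% in females, beside 13.8%, 21.0%, 16.8% and 6.30% of all genes, and 50%, 43.8%, 6.25% and 25% in males, beside 14.8%, 16.3%, 5.61% and 11.0%. The shares lower were 5.88%, 17.6%, 5.88% and 5.88% in females, beside 10.9%, 17.1%, 13.2% and 4.38% of all genes. In males they were 6.25%, 12.5%, 0% and 6.25%, beside 14.4%, 14.7%, 5.22% and 11.5%. Fbxo32 held 9691 at the lowest, 19357 at the median and 57923 at the highest in females at 48 h, against 1975, 2484 and 2846 at 0 h. In males it held 20801, 36016 and 78697 at 48 h, against 5431, 7536 and 10159 at 0 h. Its log2 changes were 2.49, 3.16, 1.96 and 1.21 in females and 2.1, 2.31, 0.56 and 1.41 in males, in order of time. The male value at 72 h was the lowest of the course for Fbxo32 as for Eda2r. Eda2r was selected for its correlation with Fbxo32 and Trim63, so the likeness of their courses is a description and carries no test. Trim63 changed by 1.77, 2.50, 1.32 and 1.11 in females and by 1.62, 1.58, 0.28 and 1.12 in males. Fbxo32 and Trim63 did not pass the test at 168 h in females (limma adjusted p = 0.070 and 0.072) or at 72 h in males (0.28 and 0.60). Eda2r itself was not tested, and no difference between its change and theirs was tested. Trim54, a relative of Trim63, rose by 0.84, 0.84, 0.69 and 0.42 in females and by 0.55 and 0.46 at 24 h and 48 h in males, the female call at 168 h being lost in 9 fits that each left out 1 library. Fbxo31, another F-box gene, was higher at all 4 times in females, by 0.80, 1.11, 0.97 and 0.62. Its female change exceeded its male change at 72 h by 0.65 ± 0.16 (limma adjusted p = 0.015; 0.0071 to 0.043 when 1 library was left out). Foxo3 was called higher at all 4 times in females and at 24 h and 48 h in males, and Foxo1 at all 4 times in females and at 48 h in males. Foxo4 was called higher only at 48 h in females and at 168 h in males. Foxo6, measured in the female table only and at a mean signal of 56.15, went the other way. It was called lower at all 4 times, by 1.12, 2.35, 1.59 and 1.60.

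**Figure D4:**
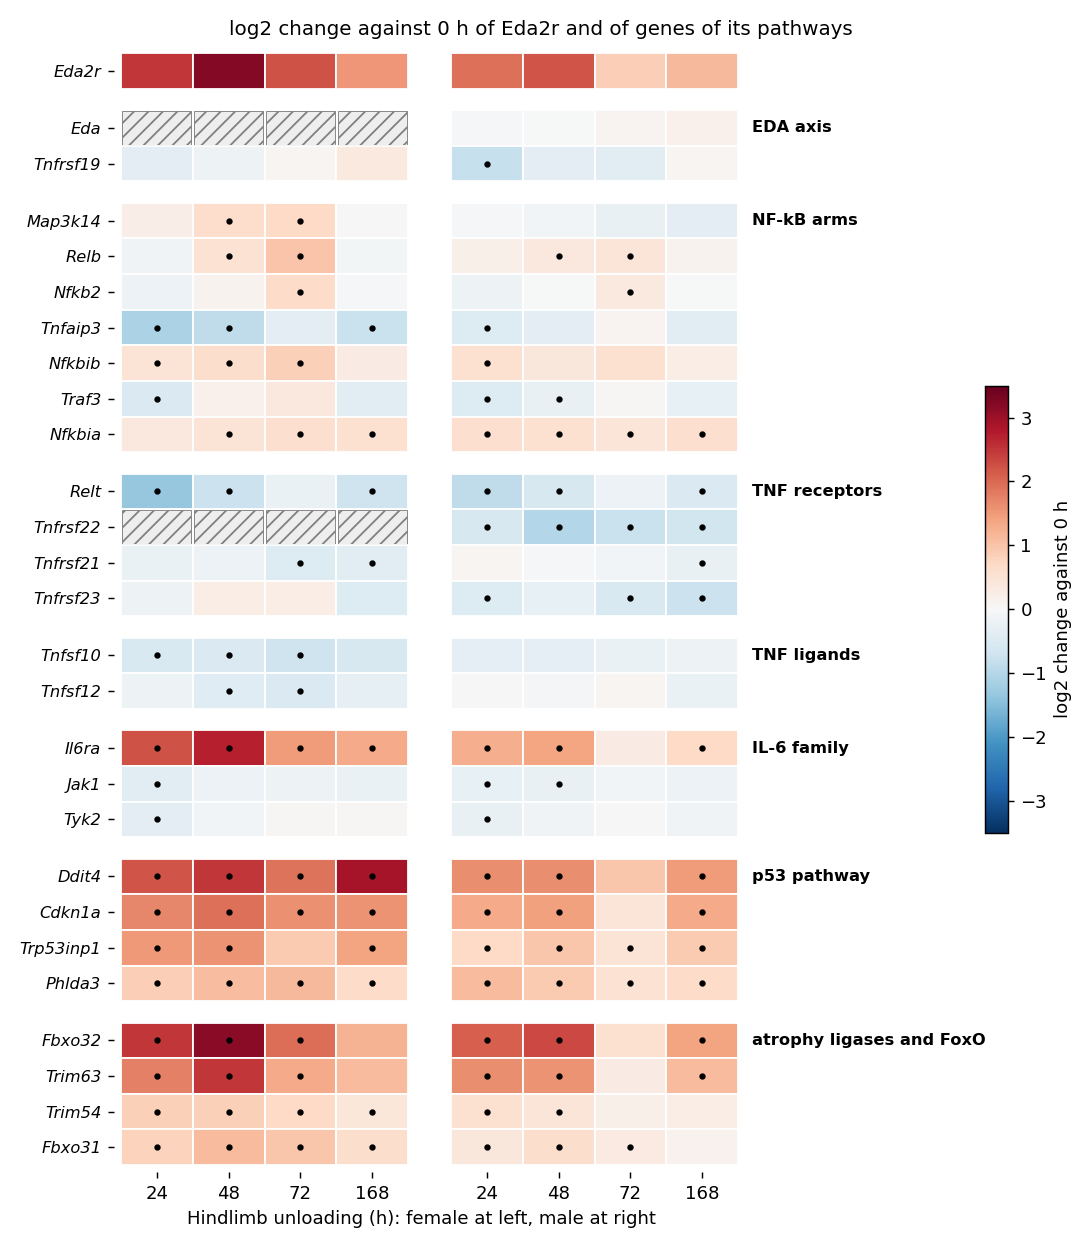
log2 change against 0 h by hours of unloading, females left and males right, for Eda2r and genes of its pathways; red is higher and blue lower, black dots mark limma adjusted p under 0.05 (Eda2r was not tested), and hatched cells are genes absent from that table. Eda2r, Il6ra, Cdkn1a, Fbxo32 and Trim63 are deep red at 24 h and 48 h and paler in males at 72 h, and Relb and Nfkb2 carry their dots at 48 h or 72 h.

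Markers of other cells were set beside Eda2r over all libraries of a table. Summed satellite cell markers had r with Eda2r of 0.603 in females, from 2 of 5 markers measured, and 0.545 in males, from 3 of 5. In females their sum ran from 561 to 802 at 24 h, 579 to 686 at 48 h, 593 to 815 at 72 h and 546 to 737 at 168 h, against 421 to 531 at 0 h. In males it ran from 1144 to 1356 at 24 h, 1069 to 1536 at 48 h, 1127 to 1504 at 72 h and 1196 to 1578 at 168 h, against 903 to 1162 at 0 h. The female ranges lay above that of the controls, and the male ranges at 24 h, 48 h and 72 h overlapped with it. Of the members, Cdh15 was higher in all 8 comparisons, by 0.46 to 0.83, and Chodl in females at 24 h and 48 h; Pax7, the defining marker, was in the male table only and was not called there, nor was Chodl in males (limma adjusted p from 0.58 to 0.95). Their part in the values of Eda2r was not tested.

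The muscle fibre sum had r of -0.415 with Eda2r in females and -0.108 in males, and the tenocyte sum (3 of 4 markers) -0.486 and -0.113. In females at 72 h, where the excess over the male change of Eda2r was largest, some markers of several cell types were lower. All 5 red blood cell markers fell, as did 2 of 3 tenocyte markers (Tnmd by 2.39 ± 0.37, limma adjusted p = 7.6e-06, and Fmod by 0.96), with Scx not called. The fibro-adipogenic genes Lum and Dpt fell by 1.45 and 0.85, the endothelial gene Kdr by 0.94, the macrophage gene Mrc1 by 0.90 and the fibre gene Acta1 by 0.83. The other measured markers of these 4 cell types were not called at 72 h, and the endothelial Cldn5 was 0.48 higher. Several of these falls were not particular to 72 h. Kdr and Acta1 were lower by 0.90 and 0.88 at 168 h. Tnmd was lower by 1.73 at 48 h and 1.39 at 168 h, and Lum by 1.09 and 0.86. Dpt and Fmod were lower at 48 h as well, by 0.66 and 0.81. Mrc1 and the red blood cell markers were called in females at 72 h only. The part of these markers in the values of Eda2r was not tested. The macrophage, endothelial, fibro-adipogenic, adipocyte, Schwann cell, smooth muscle and red blood cell sums had r between -0.31 and 0.23 in both sexes. No neutrophil marker was in either table, and of the lymphocyte markers only Cd3e was in the male table, at a median of 22.7 or less in every group and with r of -0.711.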

How the data were processed

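Libraries were grouped by the sex and time point in the labels. The authors deposited a normalized signal per gene and library, in 1 table per sex; the aligner STAR 2.7.8a, DESeq2 and Partek are listed, per the submitters' processing notes, as are 2 builds (mm39 and mm10), and the role of each is not given in the sources used here. The authors also deposited a ratio of each time to 0 h. The last coordinate of a gene was read as exclusive. Depth was estimated from the smallest step between low values; only 44.9% to 71.2% of low values in female libraries and 42.3% to 60.1% in male libraries were whole reads within 0.03, so counts were not recovered and limma replaced a count test. limma 3.58.1 in R 4.3.3, with trend and robust variances, was fitted to log2(signal + 1) over all genes, with all 5 groups of a sex in 1 model or all 10 groups for the sex difference. A test of the sex difference of Eda2r was planned and is not given, since both courses selected the gene. Tests were two-sided, with Benjamini-Hochberg adjustment of p-values over all genes, and a call is an adjusted p under 0.05. The fits and the depth estimate were tested on simulated data. The gene and the lists were chosen with earlier results of these data known. Named genes are the ectodysplasin members, up to 4 of each other list (called alike at 24 h in both sexes, then called most often), the 10 most alike by each measure, and neighbours within 1 Mb; some genes that this rule takes are not reported here. Genes named beyond that rule (Map3k14, Relb, Nfkb2, Chuk, Birc2, Birc3, Traf2, Traf6, Fas, Ltbr, Tnfrsf4, Tnfrsf12a, Trp53, Ccng1, Polk, Zmat3, Foxo1, Foxo3, Foxo4, Foxo6 and single markers) were chosen after their values were seen. Correlations and figures came from Python 3.11.15 (pandas 2.3.3, numpy 2.4.6, matplotlib 3.10.9).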

Additional observations from a re-analysis of the deposited data

How the results depend on the processing

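The log2 change of Eda2r kept its direction at all 4 times in both sexes under other pseudocounts (0.1 and 10), scaling to the library total, quantile normalization, a minimum mean of 100, limma without trend and robust variances and array weights. It also did so without libraries that stood apart (females only) and within a library set (female 48 h, male 72 h and male 168 h). These alternatives gave 2.44 to 2.66, 2.89 to 3.26, 2.19 to 2.59 and 1.42 to 1.57 in females and 1.87 to 1.98, 1.96 to 2.19, 0.78 to 0.88 and 1.06 to 1.13 in males, in order of time. The female change of Eda2r exceeded the male change at 72 h by 1.55 with array weights and by 1.74 without libraries that stood apart, and by 1.2 to 1.63 when 1 library was left out. No paired analysis was possible because no label pairs libraries across groups; the replicates were numbered in record order. Alternatives for the sex difference of pathway genes were chosen after seeing the data. The sex difference could not be fitted within a library set, since no set holds both sexes. The pathway members called at 168 h in females numbered 34 with array weights, against 16 as reported. At 72 h in males they numbered 7 within a library set, against 12 as reported, in a fit with 2 libraries at 72 h. The share of all genes was not counted in either fit.

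Correlations moved with the libraries used. For Fbxo32, r was 0.984 and 0.833 within female sets A and B (0.963 in C) and 0.770 and 0.764 within male sets B and C (0.931 in A); centred, it was 0.848 in females and 0.717 in males. For Trim63 it was 0.928 and 0.689 within female sets A and B (0.763 in C), 0.777, 0.739 and 0.785 within male sets A, B and C, and 0.692 in females and 0.688 in males when centred. For Cdkn1a it was 0.874, 0.401 and 0.352 within female sets A, B and C and 0.517, 0.814 and 0.617 within male sets A, B and C, and 0.359 in females and 0.443 in males when centred. The cause was not tested. Of the other settings, 803 left the value within its spread or on its side of the threshold. Depth limits the female 72 h libraries most, with 120 to 1149 estimated reads for Eda2r.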
